A study of Mus musculus with 90 samples.

Results

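The frontal cortex of male C57BL/6J mice that had seen an intruder was compared between 30 min and 120 min after the encounter. The intruder-exposed frontal cortex libraries of these 2 times were taken by their titles, which gave 11 of the 90 libraries of the series, 5 at 30 min and 6 at 120 min. Each resident male lived with a C57BL/6J female, a step meant to make him hold a territory, and the female was taken away some hours before the test. An unfamiliar BALB/cJ male inside a wire-mesh cage was then placed with the resident for 5 min, so that the males could not touch. Control residents met the same mesh cage with a paper cup in it. All residents, intruder-exposed and control, afterwards waited in quiet darkness for 30, 60 or 120 min. Poly(A) RNA of dissected frontal cortex, amygdala and hypothalamus was sequenced, and reads were counted per gene. Within frontal cortex every library carries the label of a different animal, and most of these labels recur among the amygdala and hypothalamus libraries. The design text also speaks of pooled samples, so treating a library as 1 animal rests on the labels.

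A short stimulus reaches neuronal transcription in steps. Calcium and cAMP signalling first switch on rapid genes such as Fos, Egr2 and Btg2, whose transcripts are short-lived, and later waves include secreted and synaptic proteins. Stress also raises glucocorticoid hormones, which act through a nuclear receptor on genes such as Tsc22d3 and Fkbp5. Cells that must fold more protein, or that hold misfolded protein, raise chaperones of the cytosol through heat shock factor and chaperones of the endoplasmic reticulum (ER) through the unfolded protein response. Frontal cortex takes part in the control of social and defensive behaviour.

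Counts over genes summed to 46.4 to 51.85 M reads in the 30 min libraries and to 46.55 to 58.86 M in the 120 min libraries. Levels are given as CPM, the usual rescaling of gene counts to a common library size, with sizes adjusted by edgeR. The summed level of 8 upper-layer cortical markers, a check of the dissection, was 784 to 1370 CPM over all frontal cortex libraries (median 1040), 680 to 848 in amygdala (median 748) and 640 to 840 in hypothalamus (median 744), so the ranges overlap. The 784 belongs to the 120 min intruder library of replicate 1, which also carried hypothalamic and thalamic genes (below). Deep-layer markers summed to 333 to 531 CPM in frontal cortex, 344 to 598 in amygdala and 167 to 221 in hypothalamus and so do not separate cortex from amygdala. Time cannot be told apart from other marks of the libraries. Every 30 min column of the count table carries the mark ISO in its header and every 60 or 120 min column the mark CERV. The sources used here do not explain these marks, and the design text names cervical dislocation as the way all residents were killed. Whatever the marks stand for cannot be told apart from time in any value below that compares 120 with 30 min. Of the dual sequencing index, 0 first parts are shared between the 30 and 120 min intruder libraries of frontal cortex, while 3 second parts occur at both times. The 30 min replicates 1 and 2 carry the same first part, called the first index below, and replicates 3 to 5 another, called the second index. Reads that fell in no annotated feature were 12.13% ± 0.676 (SD, n = 5) at 30 min and 10.16% ± 0.345 (SD, n = 6) at 120 min without overlap, with a two-sided exact permutation p of 0.00216, the smallest these group sizes allow, and 0.0259 after adjustment over 12 tests of library measures in both conditions. The shift was 11.59% to 10.17% in controls (exact permutation p = 0.013, adjusted 0.078), and its part in the results below was not tested.

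Between 30 and 120 min, most chaperone genes of the ER and cytosol, all 8 oligodendrocyte markers and 38 of 81 nuclear genes of oxidative phosphorylation rose in intruder-exposed frontal cortex. Some rapid transcription factors, splicing factors and markers of upper-layer neurons and blood vessel walls were among the genes that fell. Of 17091 genes tested with edgeR, 3021 (17.7%) were called, that is, had a Benjamini-Hochberg adjusted p below 0.05. Of these, 1541 (9.02% of the genes tested) were higher and 1480 (8.66%) lower at 120 min. Most changes were small: the median size among called genes was 0.24 on the log2 scale, and 81 went beyond 1. The 5 and the 6 libraries did not overlap at all for 1574 genes (9.21%). In control frontal cortex, 331 genes (1.94%) were called higher and 424 (2.48%) lower at 120 min. The change over time was called different between intruder and control libraries for 0 genes (0%) with edgeR, 1025 genes (6%) having an unadjusted p below 0.05. DESeq2 called 3 and limma-voom 0, so no gene below is called particular to the intruder by the main test.

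**Figure D1:**
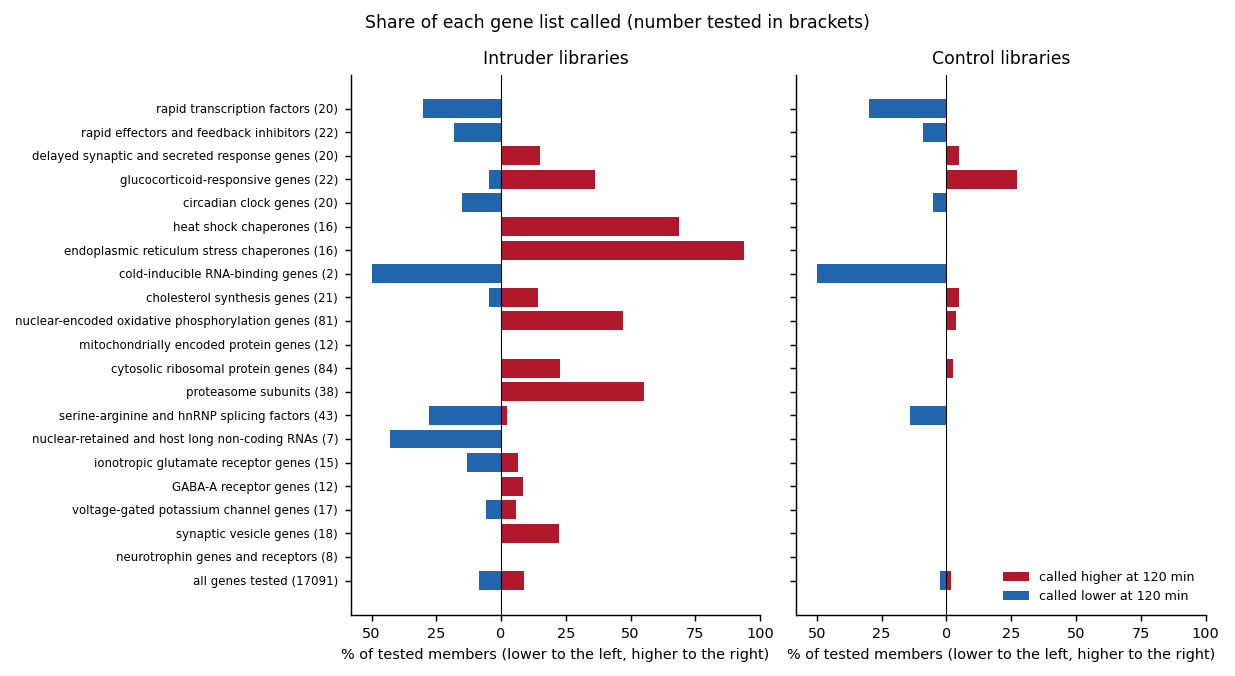
Share of the tested members of each gene list that edgeR called higher (red, to the right) or lower (blue, to the left) at 120 than at 30 min, in intruder (left panel) and control libraries (right panel), in percent. In intruder libraries the ER stress list had 15 of 16 members called higher, beside 9.02% of all genes tested. In controls it had 0.

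The folding machinery of the ER rose almost throughout. Of 16 genes in the ER stress list, 15 rose and 0 fell from 30 to 120 min in intruder libraries, with a median log2 fold change of 0.32 against 0 over all genes, and 9 had no overlap between the groups. In controls 0 of the 16 were called, and their median was -0.04. The promoters are shown because several of these genes share a control element. The ER stress element, searched as CCAAT and CCACG with 9 bases between them on both strands of the 250 bases before the start of each gene, is bound by NF-Y together with the transcription factor ATF6. It was found for 7 of the 14 list members in the RefSeq promoter table: Calr, Canx, Creld2, Dnajc3, Hsp90b1, Hspa5 and Pdia6. Sdf2l1 and Pdia4 were in the table without it, while Canx had it and was not called. Over all genes of the table, 35 of 27025 (0.13%) had it. Below are 4 of these windows from RefSeq on GRCm38.p6, each written along the gene's strand, with the matched letters in capitals: chr2:34771840-34772089 on the plus strand for Hspa5, chr10:86705445-86705694 on the minus strand for Hsp90b1, chr8:84846932-84847181 on the minus strand for Calr and chr15:88819396-88819645 on the plus strand for Creld2.
Hspa5: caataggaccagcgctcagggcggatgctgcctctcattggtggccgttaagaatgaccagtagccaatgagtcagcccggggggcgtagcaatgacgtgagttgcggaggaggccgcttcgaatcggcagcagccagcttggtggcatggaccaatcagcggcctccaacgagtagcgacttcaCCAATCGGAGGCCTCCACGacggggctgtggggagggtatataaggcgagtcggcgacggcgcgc
Hsp90b1: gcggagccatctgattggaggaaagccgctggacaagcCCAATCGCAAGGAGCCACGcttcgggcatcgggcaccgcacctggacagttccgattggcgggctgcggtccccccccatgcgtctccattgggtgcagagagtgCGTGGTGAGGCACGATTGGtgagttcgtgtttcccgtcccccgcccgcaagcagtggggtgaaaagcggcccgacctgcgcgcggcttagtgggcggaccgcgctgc
Calr: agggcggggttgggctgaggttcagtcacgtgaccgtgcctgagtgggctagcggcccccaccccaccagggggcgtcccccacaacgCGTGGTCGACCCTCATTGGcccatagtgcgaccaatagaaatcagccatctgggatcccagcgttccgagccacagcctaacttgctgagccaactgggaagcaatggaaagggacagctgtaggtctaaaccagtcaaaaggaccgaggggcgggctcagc
Creld2: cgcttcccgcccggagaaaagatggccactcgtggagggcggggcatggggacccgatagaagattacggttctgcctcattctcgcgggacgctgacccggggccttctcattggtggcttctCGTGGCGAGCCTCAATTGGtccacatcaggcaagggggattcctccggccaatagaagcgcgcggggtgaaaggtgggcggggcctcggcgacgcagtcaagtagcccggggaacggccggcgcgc
Hsp90b1 has 2 matches, the others 1. A match describes the letters and is not shown to be a used site.

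Sdf2l1, an ER resident that works with the chaperone BiP, rose most within the list. Its levels at 30 min were 10.2, 11.2, 11.2, 12.1 and 13.1 CPM, and at 120 min 16.1 at the lowest, 22.9 at the median and 24.2 CPM at the highest. The groups did not overlap, and the log2 fold change was 0.87 ± 0.13 (SE; edgeR adjusted p = 0.000111). At 60 min the intruder libraries spanned 13.3 to 24.7 CPM. Control libraries were at 11.8 to 18 CPM at 30 min and 13.9 to 16.6 CPM at 120 min, with a log2 fold change of -0.07. The difference between the intruder and the control change was 0.94 (unadjusted p = 1.27e-05, edgeR adjusted p = 0.137).

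Hspa5 encodes BiP, the main chaperone of the ER lumen and the sensor that holds the unfolded protein response in check. It measured 311, 331, 333, 340 and 352 CPM at 30 min, and 355, 482 and 550 CPM at the lowest, median and highest of the 120 min libraries. All 120 min libraries stood above all 30 min libraries, with a log2 fold change of 0.51 ± 0.10 (edgeR adjusted p = 0.0013). Controls ranged from 306 to 450 CPM at 30 min and from 311 to 425 CPM at 120 min, spans that overlap widely.

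The other large changes were in a disulfide isomerase and in secreted or stress-induced partners of BiP. Pdia4, which forms and reshuffles disulfide bonds, was at 40.6, 44.3, 45.0, 46.0 and 46.5 CPM at 30 min and between 52.7 and 82.7 CPM (median 67.7) at 120 min. It rose by 0.60 ± 0.10 on the log2 scale (edgeR adjusted p = 0.000224) without overlap. Manf, a secreted ER stress factor with neurotrophic activity, had 42.2 to 51.9 CPM at 30 min and 55.5 to 80.2 CPM (median 70.0) at 120 min, again without overlap (log2 fold change 0.56 ± 0.09, edgeR adjusted p = 0.00029). Creld2 rose by 0.62 ± 0.11 and Pdia6 by 0.40 ± 0.08. Calr, the calcium-binding lectin chaperone, spanned 332 to 382 CPM and then 386 to 459 CPM (log2 fold change 0.29, edgeR adjusted p = 0.00629), so its groups met without crossing.

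Regulators of the response rose too. Xbp1, whose spliced transcript encodes a transcription factor of the unfolded protein response, had a log2 fold change of 0.36 ± 0.07. For Atf4 and Ddit3, transcription factors of the branch that acts through translation, it was 0.23 each, as it was for Hsp90b1, the ER member of the Hsp90 family. Hsp90b1 overlapped between the groups (314 to 338 CPM and 331 to 424 CPM) and lost its call without the 30 min library of replicate 3 (or the 120 min library of replicate 1). Canx, the membrane-bound relative of Calr, was the 1 member not called, at 0.10 (edgeR adjusted p = 0.189). Without any 1 library, 13 to 15 of the 16 were called.

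**Figure D2:**
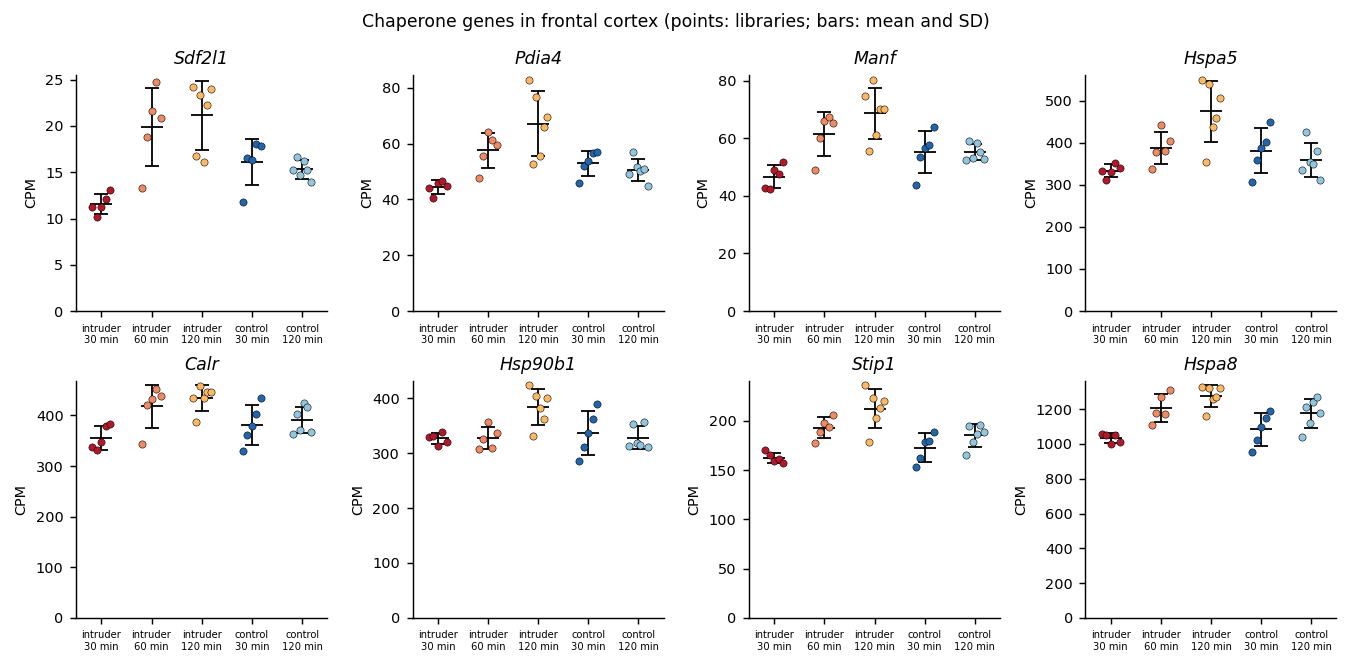
CPM per library (points) with the mean and SD (bars) for 8 chaperone genes, by condition and time. Sdf2l1, Pdia4, Manf, Hspa5, Calr, Stip1 and Hspa8 have no overlap between the 30 min and the 120 min intruder libraries, and the control libraries of both times overlap for each of the 8 genes.

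The test of the difference was positive for all 16 ER genes, with a median of 0.36 on the log2 scale. Of these, 15 had an unadjusted p below 0.05, beside 6% of all genes, but the smallest adjusted p was 0.137, so 0 were called by edgeR over the whole table. Part of the difference lies at 30 min, where the control medians of Sdf2l1 (16.5 CPM) and Pdia4 (53.8 CPM) stood above every 30 min intruder library. Sdf2l1 and Pdia4 were called when DESeq2 was used (differences 0.94 and 0.66, adjusted p = 0.00488 and 0.0104), as was P4ha1, a collagen prolyl hydroxylase of the ER (0.52, adjusted p = 0.00957). The same 3 genes were called by edgeR without the 120 min intruder library of replicate 2 or of replicate 4, and Sdf2l1 alone without the 30 min control library of replicate 1.

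Heat shock chaperones of the cytosol and mitochondria also rose: 11 of 16 were called higher and 0 lower, with a median of 0.29, against 0 called and -0.04 in controls. Stip1, the scaffold that passes clients from Hsp70 to Hsp90, was at 170, 165, 159, 161 and 157 CPM in the 30 min replicates 1 to 5. At 120 min it spanned 179 to 236 CPM with a median of 216, all above the 30 min libraries (log2 fold change 0.39 ± 0.06, edgeR adjusted p = 0.000149). Hspa8, the constitutive Hsp70, went from 1000 to 1060 CPM up to 1160 to 1330 CPM (log2 fold change 0.31 ± 0.06, edgeR adjusted p = 0.000708). Ahsa1, which stimulates the ATPase of Hsp90, rose by 0.34 ± 0.06, and the cytosolic Hsp90 genes Hsp90aa1 and Hsp90ab1 by 0.23 and 0.22.

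The inducible Hsp70 genes Hspa1a and Hspa1b were not called. Hspa1a, an inducible Hsp70 gene, was at 22.3 CPM in the 30 min library of replicate 1 and at 7.01 to 8.56 CPM in the other 4, while the 120 min libraries spread from 6.49 to 22.7 CPM. Its log2 fold change was 0.46 ± 0.27 (edgeR adjusted p = 0.232), and for its near-identical neighbour Hspa1b it was 0.64 ± 0.25 (edgeR adjusted p = 0.077). Reads of these copies are hard to assign, so both values are uncertain. Dnajb1, Hspd1 and Hspa4l were not called either. The count of 11 dropped to 7 without the 30 min library of replicate 4, and likewise without the 120 min library of replicate 1. Restricting the 30 min libraries to the first index gave 3, and to the second index 12. The heat shock element, searched on both strands as GAA, TTC and GAA with 2 bases between each, was found in the windows of Hspd1 and Hspe1, 2 of the 13 members in the table (15.4%), beside 0.514% of all genes. Overlapping windows of neighbouring genes could hold the same match, which was not checked.

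**Figure D3:**
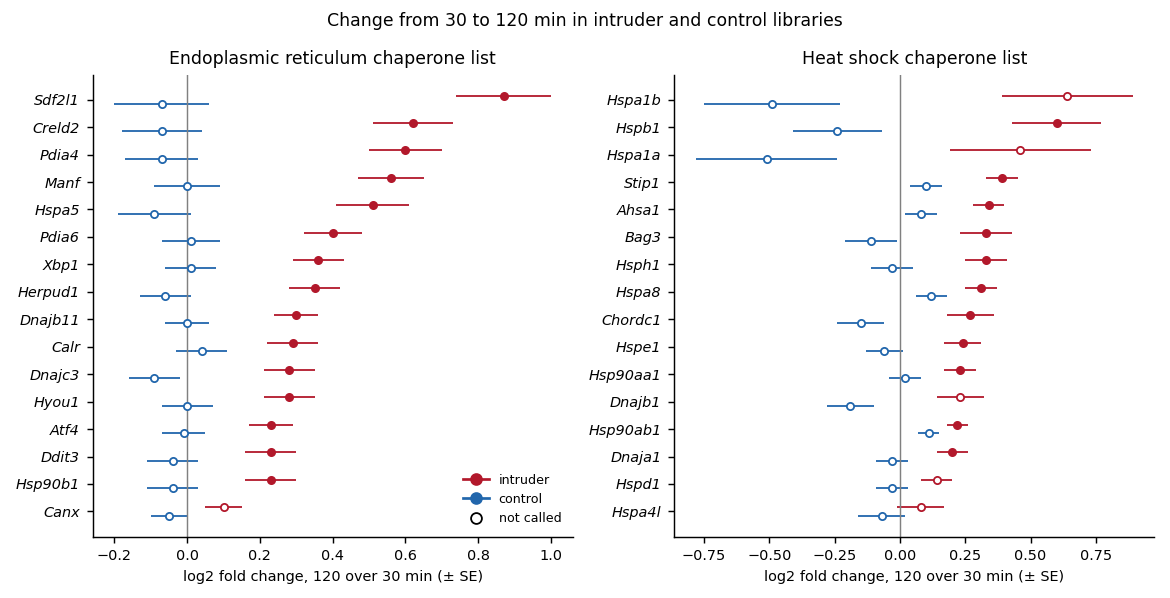
Log2 fold change from 30 to 120 min with its SE for each member of the ER (left) and heat shock (right) list, in intruder (red) and control libraries (blue); open points were not called by edgeR. All 32 red points lie above 0, and 0 blue points are filled.

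Some rapid activity-induced transcription factors fell between 30 and 120 min in each condition. In intruder libraries 6 of 20 fell and 0 rose (Fos, Junb, Egr2, Npas4, Atf3 and Ier2), with a median of -0.34; in controls also 6 fell (Fos, Junb, Egr2, Klf10, Atf3 and Ier2), with a median of -0.38. In each condition 14 were not called. Fos, the classical marker of recent neuronal activity, was at 62.3, 61.7, 44.6, 120 and 30.8 CPM in the 30 min replicates 1 to 5. At 120 min it spanned 24.7 to 46.5 CPM with a median of 33.7, so the groups overlapped, and replicate 4 at 30 min stood far above the rest. The log2 fold change was -0.88 ± 0.22 (edgeR adjusted p = 0.0066). Without that library it was -0.53 with an adjusted p of 0.0565, only 1 of the 6 transcription factors kept its call, and the median of the list was -0.10. With only the 30 min libraries of the first index 3 were called lower, and with those of the second index 5.

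That 1 was Egr2, a zinc-finger factor of the early growth response family. It measured 24.3, 17.1, 18.7, 60.6 and 10.6 CPM in the 30 min replicates 1 to 5 and 6.16 to 14.1 CPM (median 11.7) at 120 min, with a log2 fold change of -1.23 ± 0.28 (edgeR adjusted p = 0.00384). Without the 30 min library of replicate 4 it was -0.66 (adjusted p = 0.0395). Controls held 17.3 to 26.0 CPM at 30 min and 5.7 to 11.3 CPM at 120 min without overlap, and their log2 fold change was -1.34. Egr1, the most abundant of the list, was not called (-0.19, edgeR adjusted p = 0.326), and neither were Nr4a1 (-0.48, adjusted p = 0.0879) or Egr3 (0.04, adjusted p = 0.894). The difference between conditions had an edgeR adjusted p of at least 0.83 for every member.

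Rapid effectors and feedback inhibitors fell in 4 of 22 cases (Ccn1, Btg2, Dusp1 and Sik1), with a median of -0.10, and 0 rose. Over all genes 8.66% were called lower and 17.7% either way, so the share of the list called either way was near that of all genes. In controls 2 of the 22 fell, with a median of -0.23. Ccn1, a secreted matrix-associated protein, was at 7.17, 7.66, 12.3, 13.8 and 23.3 CPM at 30 min and at 4.22 to 5.87 CPM (median 5.19) at 120 min. The groups did not overlap (log2 fold change -1.32 ± 0.22, edgeR adjusted p = 0.000302), and controls moved likewise, by -1.05 (adjusted p = 0.00774). Btg2, an antiproliferative co-regulator of transcript decay, had 24.8, 41.4, 16.7, 46.3 and 23.2 CPM at 30 min against 12.5 to 18.7 CPM (median 14.2) at 120 min, a log2 fold change of -1.06 ± 0.20 (edgeR adjusted p = 0.000814). Only the 30 min library of replicate 3 overlapped with the later group. Arc, the synaptic immediate-early gene, was not called (-0.24, edgeR adjusted p = 0.513). The list had 2 genes called lower without the 30 min library of replicate 1 or 4, or the 120 min library of replicate 2, 3, 4 or 5. Without the 30 min library of replicate 4 its median was 0.04 and 1 gene was called higher, and with the first index alone 2 were called lower.

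The Btg2 window is printed because it holds a full palindromic cAMP response element, searched as TGACGTCA, which reads the same on both strands and binds CREB. It lies on the minus strand of chr1:134079156-134079405 in GRCm38.p6, and the element is in capitals.
Btg2: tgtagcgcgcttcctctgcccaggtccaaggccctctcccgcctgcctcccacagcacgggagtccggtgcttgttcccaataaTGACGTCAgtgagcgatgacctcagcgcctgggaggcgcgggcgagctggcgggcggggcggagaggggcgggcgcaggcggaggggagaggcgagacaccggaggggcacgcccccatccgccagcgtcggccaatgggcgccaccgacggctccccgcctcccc
The element was found for 4 of 17 effectors in the table (23.5%; Arl4d, Btg2, Dusp1 and Ppp1r15a) and 1 of 16 transcription factors (6.25%; Maff), beside 1.77% of all genes. Arc, Egr1, Egr3 and Ier2 have no entry in the table.

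Some glucocorticoid-responsive genes rose in each condition. In intruder libraries 8 of 22 were called higher and 1 lower (Dusp1, a call lost in 8 of 11 fits that leave out 1 library), with a median of 0.23, and in controls 6 were called higher, with a median of 0.24. Arrdc2, an arrestin-domain protein, was at 10.5, 9.26, 9.41, 8.26 and 11.3 CPM in the 30 min replicates 1 to 5 and at 13.0 to 22.2 CPM (median 15.2) at 120 min. The groups did not overlap (log2 fold change 0.72 ± 0.13, edgeR adjusted p = 0.000708). Tsc22d3, which encodes the anti-inflammatory protein GILZ, spanned 87.6 to 124 CPM and then 121 to 168 CPM, a log2 fold change of 0.41 ± 0.11 (edgeR adjusted p = 0.0118) with overlap in 1 early library. Fkbp5, a co-chaperone that dampens the receptor, rose by 0.45 ± 0.16 (edgeR adjusted p = 0.0465) and by 0.82 in controls (adjusted p = 0.00405). Plin4, a coat protein of lipid droplets, rose by 1.04 ± 0.36 and by 1.51 in controls. The count of 8 went down to 3 without the 30 min library of replicate 4, 4 without replicate 3, and 5 without replicate 5; it was 5 and 4 without the 120 min libraries of replicates 1 and 5. Restricting the 30 min libraries to the first index gave 2 (median 0.16), and the second index 6 (median 0.25).

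**Figure D4:**
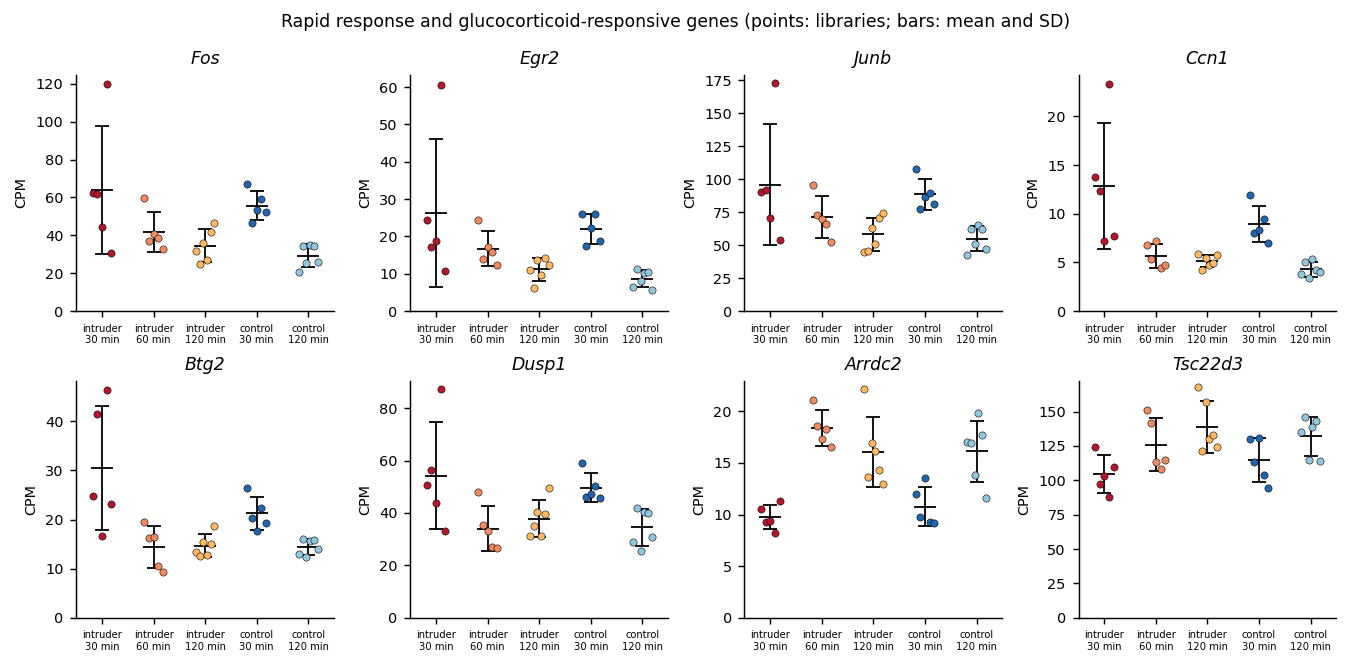
CPM per library (points) with the mean and SD (bars) for 6 rapid response genes and 2 glucocorticoid-responsive genes (Arrdc2, Tsc22d3), by condition and time. The 30 min intruder library of replicate 4 is the highest point for Fos (120 CPM) and Egr2 (60.6 CPM), and Arrdc2 has no overlap between the 30 and the 120 min intruder libraries.

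The share of later members of the activity response that was called was near that of all genes. Of 20 delayed synaptic and secreted genes 1 rose in controls, with a median of 0.02. In intruder libraries 3 rose and 0 fell, with a median of 0.03, beside 9.02% of all genes called higher and 17.7% called either way. They were Cdkn1a, an inhibitor of cyclin-dependent kinases that is also glucocorticoid-responsive (0.59 ± 0.15, edgeR adjusted p = 0.00953), the inhibitory neuropeptide Sst (0.27 ± 0.07, adjusted p = 0.0102) and the growth-signalling GTPase Rheb (0.14, adjusted p = 0.0355; call lost in 6 of 11 fits that leave out 1 library). Bdnf, the neurotrophin of activity-dependent plasticity, was at 40.1 CPM ± 6.82 (SD, n = 5) and 38.9 CPM ± 4.55 (SD, n = 6) and was not called. The count was 6 (median 0.10) without the 30 min library of replicate 4, and 0 (median -0.08) with only the 30 min libraries of the second index. Of 20 circadian clock genes 3 fell, the period gene Per3 (-0.26), the nuclear receptor Rorb (-0.38) and Usp2 (-0.12), and 0 rose, with a median of -0.07, beside 8.66% of all genes called lower. Usp2 lost its call in 10 of 11 fits that leave out 1 library. With the first index alone, 0 clock genes were called lower and 1 higher, and with the second index alone 2 lower. Of the 2 cold-inducible RNA-binding genes, Rbm3 fell by 0.24 on the log2 scale (not called without the 30 min library of replicate 2), and in controls its log2 fold change was also -0.24 (edgeR adjusted p = 0.0337).

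Nuclear genes of the mitochondrial respiratory chain that rose did so by small amounts. Of 81 nuclear-encoded oxidative phosphorylation genes 38 rose and 0 fell, with a median of 0.15; in controls 3 rose, with a median of 0.07. Atp5g1, a subunit of the proton ring of ATP synthase, was at 76.6 CPM ± 2.09 (SD, n = 5) at 30 min and at 91.4 CPM ± 5.6 (SD, n = 6) at 120 min. Without overlap, its log2 fold change was 0.25 ± 0.04 (edgeR adjusted p = 0.000576). Ndufa7 of complex I rose by 0.27 ± 0.05 and Sdha of complex II by 0.12 ± 0.03. The 12 mitochondrially encoded genes tested had 0 calls with edgeR and a median of -0.01, and in controls a median of 0.01.

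Among genes of protein turnover and synthesis the calls were also higher ones. Of 38 proteasome subunits 21 rose and 0 fell (median 0.13), against 0 calls in controls (median 0.07). Psmd4, a ubiquitin receptor of the proteasome, was at 72.1 to 74.8 CPM at 30 min and at 81.3 to 86.0 CPM at 120 min without overlap, with a log2 fold change of 0.18 ± 0.04 (edgeR adjusted p = 0.00247). Of 84 cytosolic ribosomal protein genes 19 rose and 0 fell (median 0.11), among them Rpl7l1 (0.21 ± 0.04) and Rps6 (0.17 ± 0.04). With only the 30 min libraries of the first index, the genes called higher numbered 3 for the proteasome, 6 for ribosomal proteins and 11 for oxidative phosphorylation, with list medians of 0.10, 0.12 and 0.15; with those of the second index the counts were 20, 9 and 36. Ribosomal protein genes share sequence with many pseudogenes, so their counts are less certain. Their number of calls was 10 without the 30 min library of replicate 1, 8 without replicate 3, and 12 and 9 without the 120 min libraries of replicates 2 and 5. Short genes tended to have the higher changes: across 16395 genes the Spearman correlation of the log2 fold change was -0.25 with length and 0.24 with GC content, and -0.17 and 0.28 in controls, and the part of these in the list counts was not tested beyond the correction given in the closing section.

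Some splicing factors and nuclear long non-coding RNAs fell. Of 43 serine-arginine and hnRNP splicing factors 12 fell and 1 rose, with a median of -0.04, and in controls 6 fell, with a median of -0.09. With a correction for GC content and length, 8 splicing factors were called higher and 9 lower, with a median of 0, and with the first index alone 6 were called lower. Luc7l2, a component of the U1 particle that recognises splice sites, was at 209 to 232 CPM at 30 min and at 162 to 181 CPM (median 172) at 120 min. Its log2 fold change was -0.34 ± 0.05, without overlap (edgeR adjusted p = 0.000238). Son, a scaffold protein of nuclear speckles, went from 382 to 420 CPM down to 296 to 337 CPM, also without overlap (log2 fold change -0.34). Srrm2, the other speckle scaffold, fell by 0.29 on the log2 scale, as did Hnrnpdl. Of 7 long non-coding RNAs 0 were called in controls, where the median was -0.19. In intruder libraries the median was -0.27 and 3 fell: Snhg11 (-0.27), Meg3 (-0.28) and Malat1 (-0.51). With the same correction 0 of the 7 were called (median -0.07), and with only the 30 min libraries of the first index also 0, against 3 with the second. Malat1 lost its call in 9 of 11 fits that leave out 1 library, and without the 30 min library of replicate 4 only 1 of the 3 was called. These genes moved together with the share of reads outside annotated features given above, and its part in their change was not tested.

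For neuronal receptors, channels and cholesterol synthesis the share of members called was at or near the 17.7% of all genes, or below it, so the counts say nothing particular about these lists. Of 15 ionotropic glutamate receptor genes Grik3, a kainate receptor subunit, rose (0.32 ± 0.08), and the AMPA receptor subunit Gria3 (-0.20) and the NMDA receptor subunit Grin2b (-0.85) fell. Grin2b lost its call in 8 of the 11 fits that leave out 1 of these libraries. With the correction for GC content and length neither was called (Gria3 -0.09 and Grin2b -0.53), 2 of the 15 were called higher and the median was 0.03, and with the first index alone 0 of the 15 were called. Among 12 GABA-A receptor genes Gabra5 rose (0.33 ± 0.08), and among 17 voltage-gated potassium channel genes Kcna6 rose (0.17) and Kcnh7 fell (-0.34). Of the 11 fits that leave out 1 library, Kcna6 lost its call in 5 and Kcnh7 in 3, and with the correction Kcnh7 was at -0.07 and not called. With the first index alone, 0 of the GABA-A receptor and 0 of the potassium channel genes were called. Of 18 synaptic vesicle genes 4 rose, among them the vesicle glycoprotein Sv2a (0.17 ± 0.03) and the fusion clamp Cplx1 (0.26 ± 0.07), with a median of 0.08; 2 were called without the 30 min library of replicate 1 or with the correction, and 1 with the first index alone. Of 21 cholesterol synthesis genes Fdft1, Fdps and Srebf2 rose and Lss fell, with a median of 0.05, and 1 was called higher without the 30 min library of replicate 3. Srebf2 lost its call in 9 of 11 such fits. None of the 8 neurotrophin genes and receptors was called by edgeR.

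Markers of some cell types changed as well, and in bulk tissue fewer cells of a type and less RNA per cell cannot be told apart. All 8 oligodendrocyte markers rose, with a median of 0.61, and 2 of them in controls, with a median of 0.43. Their summed level was 2460 to 4120 CPM at 30 min and 3940 to 6440 CPM at 120 min. Mbp, the myelin basic protein, was at 1290, 1590, 1010, 1080 and 1640 CPM in the 30 min replicates 1 to 5 and at 1700 to 2640 CPM (median 2060) at 120 min, a log2 fold change of 0.69 ± 0.14 (edgeR adjusted p = 0.00195) without overlap. With only the 30 min libraries of the first index, 0 of the 8 were called and their median was 0.38, and with those of the second index all 8 were called (median 0.78). Of 6 oligodendrocyte precursor markers 2 rose (median 0.18; 1 to 2 without 1 library), and in controls 1 did (median 0.15). Of 9 interneuron markers, Sst among them, 2 rose (median 0.11), and 2 did in controls (median -0.01).

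Some cortical layer markers changed in each condition. In controls 1 of 9 deep-layer markers rose (median 0.38) and 1 of 8 upper-layer markers fell (median -0.1). In intruder libraries 3 of 9 deep-layer markers rose (Fezf2 by 0.66 ± 0.16, Crym by 0.54 ± 0.18 and Tle4 by 0.33 ± 0.10) and 0 fell, with summed levels of 333 to 458 CPM and 405 to 501 CPM. Of 8 upper-layer markers 5 fell and 0 rose, with summed levels of 1060 to 1370 CPM and 784 to 1110 CPM. Rasgrf2, a marker of layer 2 neurons, was at 270, 270, 340, 287 and 247 CPM at 30 min and at 163 to 227 CPM at 120 min without overlap (log2 fold change -0.51 ± 0.08, edgeR adjusted p = 0.000306). Upper-layer calls went down to 2 or 3 when any 1 of 8 libraries was left out, and deep-layer calls to 1 without the 30 min library of replicate 3 or the 120 min library of replicate 1. With the first index alone, 0 of 9 deep-layer markers were called and their median went from 0.37 to 0.11, and 2 upper-layer markers were called. With those of the second index 5 deep-layer markers (median 0.64) and 4 upper-layer markers were called. With the correction for GC content and length, 2 of 8 upper-layer markers were called and their median went from -0.17 to -0.05.

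Some astrocyte and vascular markers fell. Of 8 astrocyte markers 4 fell and 0 rose, with summed levels of 5500 to 6190 CPM at 30 min and 4730 to 5150 CPM at 120 min, which do not overlap. S1pr1, a lipid receptor of astrocytes and endothelium, went from 146 to 172 CPM down to 85.2 to 108 CPM (log2 fold change -0.69 ± 0.12, edgeR adjusted p = 0.000488), and the glutamate transporter Slc1a2 fell by 0.33. Of 8 mural cell markers 5 fell, among them Rgs5 (-0.36 ± 0.08) and Myh11 (-0.48 ± 0.15), and the summed level was 241 to 302 CPM and then 198 to 227 CPM. The mural count was 3 without the 30 min library of replicate 3 or 5, or the 120 min library of replicate 2 or 5. With only the 30 min libraries of the first index, 0 of 8 mural markers (median -0.14, from -0.31), 1 of 8 endothelial markers (median 0.02, from -0.17) and 1 of 8 astrocyte markers were called lower, and with the correction for GC content and length 2 astrocyte markers. With the second index the counts were 6 mural (median -0.42), 4 endothelial (median -0.30) and 3 astrocyte markers, and 0 meningeal markers were called with either index alone. Endothelial markers fell in 3 of 8 cases and meningeal markers in 2 of 6, the latter in 0 without the 30 min library of replicate 5. In controls 1 astrocyte (median -0.11), 1 mural (-0.23), 2 endothelial (-0.23) and 2 meningeal markers (-0.24) were called lower. The medians in intruder libraries were -0.16, -0.31, -0.17 and -0.28. In intruder libraries 1 of 8 microglial markers fell, near the 8.66% of all genes. When any 1 of 7 libraries was left out, 0 were called lower. Without the 30 min library of replicate 1 or the 120 min library of replicate 2 or 4, 2 were called lower. Without the 30 min library of replicate 5, 2 were called higher. Whether these shifts contribute to the other changes was not tested.

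**Figure D5:**
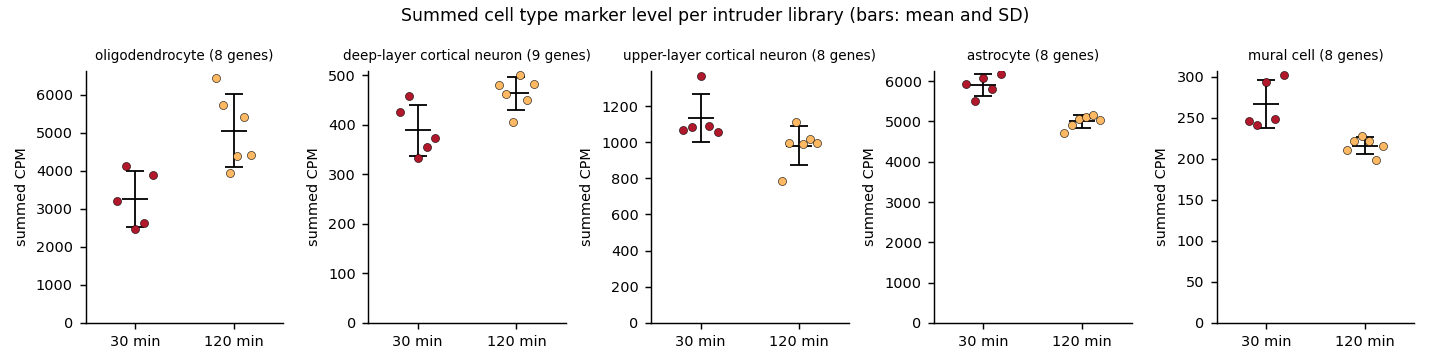
Summed CPM of 5 sets of cell type markers per intruder library (points) at 30 and 120 min, with the mean and SD (bars), scaled over all libraries of the series. Astrocyte and mural cell sums do not overlap between the times, and oligodendrocyte sums overlap only between 3940 and 4120 CPM.

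Tissue from neighbouring regions was measured by its own markers. Of 6 hypothalamic genes tested 3 were called higher at 120 min, Oxt, Gal and Trh, and 0 of these without the 120 min library of replicate 1 (1 without the 30 min library of replicate 3). In that library Oxt, the oxytocin precursor, was at 15.6 CPM, beside 0.0618 to 0.685 CPM in the others. The summed hypothalamic level was 1.41 to 4.23 CPM at 30 min and 3.45 to 41.8 CPM at 120 min, beside 795 to 2020 CPM in the hypothalamus libraries. The same library stood apart for thalamic markers, with a sum of 288 CPM beside 141 to 178 CPM in the other 10, for example Prkcd at 43.1 CPM (others 11.2 to 14.6) and Tcf7l2 at 24.9 CPM (others 3.69 to 6.55). Striatal, thalamic, choroid plexus and blood markers had 0 calls with edgeR, but their libraries were uneven. Striatal sums spanned 323 to 1430 CPM at 30 min and 354 to 1150 CPM at 120 min, with the dopamine receptor gene Drd2 at 0.899 to 35.4 CPM over both times. Choroid plexus sums were 7.01 to 102 CPM and 9.32 to 245 CPM. What neighbouring tissue adds to the results was not tested beyond the fits without this library.

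Among called genes without overlap, the 8 with the largest rise were Th, Krt80, Thbs4, Sebox, Ly6g6e, Tekt4, Nxph3 and 1700007K13Rik. Krt80, an epithelial keratin, was at 4.95, 2.49, 2.73, 1.89 and 3.76 CPM at 30 min and at 5.23 to 11.3 CPM (median 7.79) at 120 min, a log2 fold change of 1.31 ± 0.25 (edgeR adjusted p = 0.000923). Nxph3, a secreted ligand of neurexins found in deep cortical layers, went from 8.13 to 16.1 CPM up to 21.1 to 27.2 CPM (log2 fold change 0.91 ± 0.14, edgeR adjusted p = 0.00019), and in controls it rose by 0.68 (adjusted p = 0.00699). Th, the rate-limiting enzyme of dopamine synthesis, rose by 1.49 ± 0.49 (edgeR adjusted p = 0.0355), but it lost the call without the 30 min library of replicate 3 or 4 or the 120 min library of replicate 1, 3 or 6. It also belongs to the 6 olfactory bulb markers, of which it was the 1 called. Their median log2 fold change was 1.15 and 5 of 6 were positive, with summed levels of 12.6 to 33.1 CPM at 30 min and 21.3 to 91.3 CPM at 120 min. Calb2, which is also among the thalamic markers, gave 71 CPM in the 120 min library of replicate 1. The sums were 61.4 to 125 CPM in amygdala and 210 to 360 CPM in hypothalamus, so these markers are not confined to olfactory bulb. Their part in the change of Th was not tested.

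The 8 with the largest fall were Ccn1, Tnfsf10, Igfn1, Gucy1a2, Dgkh, Col19a1, Proser1 and A230006K03Rik. Igfn1 was at 51.8, 52.7, 61.7, 62.0 and 102 CPM at 30 min and at 15.4 to 36.2 CPM (median 33.7) at 120 min, a log2 fold change of -1.09 ± 0.17 (edgeR adjusted p = 0.00019). Tnfsf10, the death ligand TRAIL, went from 1.8 to 3.41 CPM down to 1.22 to 1.65 CPM (log2 fold change -1.11 ± 0.16, edgeR adjusted p = 6.69e-05), and in controls it fell by 1.18 on the log2 scale (adjusted p = 7.44e-05). Gucy1a2, a subunit of the nitric oxide receptor, and Dgkh, a lipid kinase, fell as well, Gucy1a2 by 1.07 on the log2 scale. Gucy1a2 lost its call without any 1 of 6 libraries and Dgkh without the 30 min library of replicate 1 or 3.

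The changes with the smallest adjusted p were smaller in size. Nectin3, an adhesion molecule of synaptic contacts, was at 38.8, 39.3, 48.6, 41.5 and 45.0 CPM at 30 min and at 26.7 to 30.9 CPM (median 28.4) at 120 min, a log2 fold change of -0.58 ± 0.06 (edgeR adjusted p = 5.37e-06). P3h3, a collagen prolyl hydroxylase, had 23.0 to 31 CPM and then 13.3 to 18.6 CPM (log2 fold change -0.73 ± 0.09, edgeR adjusted p = 1.44e-05). Lrrn2, a leucine-rich repeat membrane protein, went from 73.6 to 84.1 CPM up to 97.2 to 102 CPM (log2 fold change 0.30 ± 0.04, edgeR adjusted p = 3.34e-05). N4bp3, Itpk1 and Ehd1 rose by 0.68, 0.31 and 0.24, and Sestd1 and the transcription factor Ets1 fell by 0.40 and 0.53 on the log2 scale. Controls moved the same way in 7 of these 8 genes with a call (Nectin3 -0.33, P3h3 -0.67, Lrrn2 0.17, Itpk1 0.22, Ehd1 0.19, Sestd1 -0.23 and Ets1 -0.44), N4bp3 being at 0.25 without one (edgeR adjusted p = 0.0932). At 60 min Nectin3 in intruder libraries was at 24.4 to 28.3 CPM and Lrrn2 at 93.6 to 103 CPM, already at the level of 120 min.

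The same change over time was set against the intruder libraries of amygdala and hypothalamus in a fit of 31 libraries and 17616 genes. These libraries carry the labels of 11 animals, 10 of them sampled in all 3 regions, and this fit takes them as independent; with the animal as a block the counts of regional differences below were 3821 against amygdala and 467 against hypothalamus, of which 3603 and 424 were shared with the fit without it. In that fit 1512 genes (8.58%) were called higher and 1431 (8.12%) lower at 120 min in frontal cortex, 1759 (9.99%) and 1336 (7.58%) in amygdala, and 112 (0.636%) and 136 (0.772%) in hypothalamus. The change differed between frontal cortex and amygdala for 4336 genes (24.6%), 2116 (12%) being more positive and 2220 (12.6%) more negative in frontal cortex. Against hypothalamus it differed for 623 genes (3.54%), 216 (1.23%) positive and 407 (2.31%) negative, a count that reached 2158 without the hypothalamus 120 min library of replicate 1. The no-feature share went the other way in amygdala, from 10.775% to 11.951% at 30 min up to 12.303% to 13.505% at 120 min, and its part in the difference was not tested.

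Of the 16 genes in the ER stress list 14 in frontal cortex, 11 in amygdala and 4 in hypothalamus were called higher, with medians of 0.33, 0.26 and 0.23. The test of the difference from amygdala called 1 positive and 1 negative. Hspa5 changed by 0.52 ± 0.10, 0.49 ± 0.10 and 0.31 ± 0.10 on the log2 scale in the 3 regions, the last without a call (edgeR adjusted p = 0.132). Other lists had more members that differed. Of 80 oxidative phosphorylation genes 30 rose in frontal cortex while 1 rose and 15 fell in amygdala, and 55 had a more positive change in frontal cortex by the test of the difference. This was so for 46 of 84 ribosomal protein genes (8 up in frontal cortex, 16 down in amygdala) and for 27 of 37 proteasome subunits (18 up, 6 down).

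Among the single genes with the strongest evidence of a regional difference, the direction differed for some. Proser1, a proline- and serine-rich protein, was at 23.3 to 28.0 CPM at 30 min in frontal cortex and fell by 0.92 ± 0.08 on the log2 scale in this fit, while it rose by 0.71 ± 0.08 in amygdala and 0.36 ± 0.08 in hypothalamus (differences -1.62 and -1.27, edgeR adjusted p = 3.01e-10 and 1.18e-07). Rbm25, a splicing regulator, changed by -0.52 ± 0.06 against 0.63 ± 0.06 in amygdala (difference -1.15, adjusted p = 6.15e-10). S1pr1 changed by -0.68 ± 0.06 against 0.24 ± 0.06 in hypothalamus (difference -0.93, adjusted p = 1.47e-07). The endothelial genes Ly6c1 and Cd34 were not called in frontal cortex (0.02 ± 0.07 and 0.15 ± 0.08), while Ly6c1 fell in amygdala by 0.79 ± 0.07 on the log2 scale and Cd34 in hypothalamus by 0.63 ± 0.09. Ly6c1 has close paralogs, so its counts are less certain. Snx32, a sorting nexin, was at 0.09 ± 0.03 in frontal cortex (not called) and -0.32 ± 0.04 in amygdala, a difference of 0.41 ± 0.05. The death receptor Tnfrsf21 was at 0.28 ± 0.04 in frontal cortex and -0.06 ± 0.04 in hypothalamus (not called), a difference of 0.34 ± 0.06.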

How the data were processed

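The table deposited by the authors holds unnormalized read counts for 37991 Ensembl gene identifiers. Per the submitters' processing notes CASAVA 1.8.2, TopHat2 2.0.8, HTSeq 0.6.1, edgeR 3.2.4 and R 3.0.0 were used with NCBIM37; strand-specific mRNA libraries were sequenced single-end, per the labels' protocols. Special rows (no feature, ambiguous, not unique) were left out of gene counts. Gencode M21 named 32919 identifiers. Coordinates are those of the RefSeq promoter table on GRCm38.p6, not of the counting build.

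Each library was treated as 1 animal, as labelled, and p-values measure the spread between these libraries. All 32 frontal cortex libraries were fitted as 6 groups with edgeR 4.0.16 under R 4.3.3 (filterByExpr, TMM scaling, quasi-likelihood test, two-sided), with contrasts of 120 minus 30 min in intruder libraries, in controls, and their difference. The biological coefficient of variation was 10.3%, and scaling factors were 0.982 to 1.021. The 31 intruder libraries of 3 regions at these times formed another fit. CPM are on the scale of the frontal cortex fit, except marker sums and the levels of single genes given in the paragraph on neighbouring tissue (scaled over 90 libraries). Reads carry no molecular identifiers. No 2 libraries of a group agreed within sampling noise (chi-square per degree of freedom at least 6.06). The fits were checked on simulated data.

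Genes were named by rule: among called genes without overlap and with at least 1 CPM, the 8 largest and the 4 with smallest p each way, the 2 with smallest p each way in each test of a difference, and per list the 4 of highest CPM or the 3 of smallest p. Further list members, marker genes, Creld2, Oxt and P4ha1 were chosen after their values were seen. Some genes that the rule names are not reported here. The members and all lists were chosen with earlier results of these data known. Of the list and marker symbols, 7 matched no identifier. Alternatives used DESeq2 1.42.0, limma 3.58.1, other scaling, no filter, a fold threshold, a GC and length correction, subsets by index, blocks and leaving out each library.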

Additional observations from a re-analysis of the deposited data

Results flagged for a closer look

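Some libraries stood apart from the rest of their own group for a named gene, by a gap that is large beside the group's range (Dixon's test at 95%). Of 302 such tests 21 met this mark, where chance flags about 1 in 20 groups, or about 15 here. Among the 30 min intruder libraries, replicate 4 was highest for Egr2 at 60.6 CPM (others 10.6 to 24.3), for Igfn1 at 102 CPM (others 51.8 to 62.0) and for A230006K03Rik at 2.37 CPM (others 1.58 to 1.75), and lowest for Rpl7l1 at 36.3 CPM (others 39.0 to 40.1). Replicate 2 was highest for the RNA-binding genes Rbm3 at 118 CPM (others 93.8 to 96.4) and Hnrnpdl at 230 CPM (others 194 to 204), and lowest for Lrrn2 at 73.6 CPM (others 81.9 to 84.1). Replicate 3 was lowest for Fdft1 at 71.8 CPM (others 79.7 to 82.4). Replicate 5 was highest for the metallothionein Mt1 at 125 CPM (others 101 to 107) and had the largest share of reads not aligned uniquely, 10.7% (others 10.1% to 10.2%).

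At 120 min, replicate 1 was lowest for Igfn1 at 15.4 CPM (others 31.6 to 36.2), for the vesicular glutamate transporter Slc17a7 at 1050 CPM (others 1320 to 1390) and for the clock-output factor Hlf at 257 CPM (others 310 to 335), and highest for 1700007K13Rik at 3.78 CPM (others 1.59 to 1.99). It is also the library with 15.6 CPM of Oxt. Replicate 2 was lowest for Calr at 386 CPM (others 434 to 459) and highest for Rbm3 at 98.4 CPM (others 77.7 to 84.6). Replicate 5 was highest for Mt1 at 155 CPM (others 118 to 130), Atp5g1 at 102 CPM (others 86.7 to 90.8) and Tnfsf10 at 1.65 CPM (others 1.22 to 1.35). Replicate 3 was highest for Egr3 at 99.8 CPM (others 70.3 to 77.8), and replicate 4 lowest for Usp2 at 63.5 CPM (others 65.6 to 66.6).

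The change from 30 to 120 min differed between frontal cortex and amygdala for 4336 genes and between frontal cortex and hypothalamus for 623 genes by the edgeR test of the difference. Those with the smallest p against amygdala were Snx32 (0.41) and Ly6c1 (0.81), more positive in frontal cortex, and Proser1 (-1.62) and Rbm25 (-1.15), more negative. Against hypothalamus they were Cd34 (0.78) and Tnfrsf21 (0.34), more positive, and Proser1 (-1.27) and S1pr1 (-0.93), more negative.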

How the results depend on the processing

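The count of 3021 genes in intruder libraries was 2127 to 3029 when 1 library was left out, 970 with only the 30 min libraries of the first index, 2206 with those of the second, and 27 when a change beyond 1.2-fold was required. Under the latter 25.9% of calls were higher at 120 min, with the first index 61.8% and with upper-quartile scaling 42.2%, against 51% in the main test; a correction for GC content and length gave 1625 higher and 998 lower (62% higher). With that correction 16 of 16 ER and 13 of 16 heat shock genes were called higher, and splicing factors split into 8 higher and 9 lower. With the first index alone, 12 ER genes and 3 heat shock genes were called.

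The control count of 755 was 1142 with DESeq2, 441 without a filter on low counts, 1383 when only the compared groups were fitted, and 249 to 990 with 1 library left out. The test of the difference gave 3 calls with DESeq2 and 0 to 3 with 1 library left out. Against amygdala the count was 3583 to 4559 with 1 library left out. Against hypothalamus it was 1013 with DESeq2, 370 without a filter and 372 to 2158 with 1 library left out. Libraries of the 2 times are different animals that share only a number. The deviations of same-numbered libraries correlated at -0.27 to 0.35 in intruder libraries, where 2 of 5 matched their own number best, and at 0.04 to 0.30 in controls, where 4 of 5 did, which is a hint from the data and not the design. A fit with the replicate block called 3101 genes in intruder libraries, 769 in controls and 0 for the difference.

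Ntrk2, not called in the main test, turned to 0.11 (adjusted p = 0.017) under the GC and length correction. Of 91 called named genes 66 kept their call without any 1 library, 48 lost it with the first index alone, 79 under the 1.2-fold requirement, 14 under the correction and 1 with DESeq2. The cause of these shifts was not tested.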
